A study of Homo sapiens with 4 samples.

Results

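The transcription factors that establish and maintain the natural killer (NK) lineage were examined as a set of 10 genes, TBX21, EOMES, ID2, NFIL3, ZEB2, RUNX3, PRDM1, TOX, ETS1 and GATA3, among the 20323 genes measured in NK-92 cells. The members were taken by gene name, with no measured value in the rule, and all 10 were found and passed the filter on low counts. Earlier results of these data were known when the members and the gene lists below were chosen. NK-92 is a human NK cell line derived from a lymphoma, grown here in medium with fetal bovine serum, β-mercaptoethanol and recombinant IL-2. Poly(A)-selected RNA was sequenced from cells transduced with lentivirus carrying a scrambled short hairpin RNA (NK scramble, 2 libraries) and from cells transduced with a hairpin against ADAR1, an adenosine-to-inosine RNA-editing enzyme (NK shADAR1, 2 libraries). Both groups therefore carry a lentiviral hairpin and were exposed to polybrene, and all 4 libraries come from 1 cell line, so they carry no variation between donors. The labels number the libraries of each group 1 and 2. The study also uses such numbers as names of its hairpins, and its text names the sequenced knockdown cells after the hairpin shADAR1-2. The numbers were read here as replicates of that hairpin.

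NK cells are innate lymphocytes that share their early precursors with other innate lymphoid cells. NFIL3 and ETS1 act early in commitment and are needed for normal expression of ID2, which holds back the E proteins that would direct precursors towards the T and B cell fates. TOX, GATA3 and RUNX3 support further development, and the T-box factors EOMES and T-bet (encoded by TBX21) then set the cytotoxic programme, with ZEB2 and BLIMP-1 (encoded by PRDM1) acting in terminal maturation. The comparison asks whether the level of any of these regulators differed between cells with and without the hairpin against ADAR1.

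None of the 10 factors differed between NK shADAR1 and NK scramble beyond the spread between replicates. In edgeR's quasi-likelihood test, 0 of 10 passed a Benjamini-Hochberg adjusted p of 0.05, against 0% of the 11810 genes tested, and 0 of 10 had an unadjusted p under 0.05, against 2.48% of those genes. DESeq2 gave 0 of 10 on both counts, against 0% and 1.85% of its 15605 genes. The estimated log2 fold changes ran from -0.30 for NFIL3 to 0.22 for ZEB2, and the 95% intervals of all 10 lay within a 2-fold change either way. The factors of this NK programme were thus measured in both groups with differences too small to be told from 0, and with changes larger than 2-fold outside the interval of every member.

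The targeted gene was checked first. ADAR had 655 and 682 CPM (counts at a common library size, scaled by TMM) in NK scramble 1 and 2, compared with 575 and 482 CPM in NK shADAR1 1 and 2. Both knockdown libraries were below both controls, with a log2 fold change of -0.34 ± 0.20 (SE, n = 2 per group) that did not pass the test (unadjusted p = 0.127, adjusted p = 1.00, edgeR). The study reported the ADAR1 knockdown in NK-92 cells by qRT-PCR and by western blotting, which were not examined here. In these libraries, the small difference in the targeted transcript limits every comparison below. Total estimated counts were 37881704 to 39960491 per library. Libraries of the same group correlated at r = 0.981 across genes in either group, and libraries of different groups at 0.981 to 0.989, so replicates were no closer to each other than to the other group.

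The hairpins are shown because their targets decide which transcripts could be reached directly, and shADAR1-2 is the one named for the sequenced cells. The target sequences given for the hairpins, 5′ to 3′ and in lower case throughout, are
shADAR1-1: gcactggcagtctccgggtgt
shADAR1-2: gccgtgtcccgaggaagtgca
Each of these 21-base sequences matched transcripts of ADAR and of no other gene among 206694 annotated transcripts (GENCODE release 29), and neither matched any of the 87 transcripts of the 10 members. Full-length matches alone were searched, so partial matches were not tested.

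The promoters of the members were searched for the recognition sequences of the same factor families, and the stretch is printed where a RUNX or ZEB sequence was found. RefSeq promoter windows of 300 bases (250 before and 50 after a transcript's start, GRCh38.p14) were held for 8 of the 10 members, 16 windows in all. TOX and ETS1 had none. In the sequences that follow, read 5′ to 3′ on the strand of the gene, capitals mark TGTGGT (RUNX, or its reverse complement ACCACA) or CAGGTG (the E-box bound by ZEB factors), and both strands were searched.
RUNX3, chr1:24965124-24965153, minus strand: cctggtccctcaACCACAgaACCACAaggc
GATA3, chr10:8051186-8051215, plus strand: tttgggggtgtgTGTGGTagcttaacccct
EOMES, chr3:27722415-27722444, minus strand: cccgcgagtcggCAGGTGggtagccccggc
RUNX3, chr1:24965223-24965252, minus strand: gacatcacggccCAGGTGaccgcggcccag
PRDM1, chr6:106086234-106086263, plus strand: cctgggctcggcCAGGTGgtgttggccacg
Counted from the transcript's start, the 2 RUNX matches in RUNX3 begin at positions -131 and -123, and the match in GATA3 at position -38. TGTGGT was in 2 of the 16 member windows and in 10.57% of the 13860 windows of tested genes. CAGGTG was in 3 of 16, against 18.6% of windows, and the wider E-box CANNTG, which includes CAGGTG, was in 9 of 16, against 61.9%. The remaining 5 motifs had no match in the member windows. They were the T-box motif GGTGTGA, present in 2.99% of windows, the ETS motif CCGGAAGT, present in 7.81%, the motif of zinc finger GATA factors, spelled AGATAA and present in 5.70%, the NFIL3 motif TTANNTAA, present in 2.98%, and the BLIMP-1 motif, present in 0.26%. A match describes these letters only and no binding was measured.

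In the genome, the 4 genes with a printed sequence are RUNX3 on chromosome 1 (24899511 to 24965121, minus strand), GATA3 on chromosome 10 (8045378 to 8075203, plus strand), EOMES on chromosome 3 (27715949 to 27722711, minus strand) and PRDM1 on chromosome 6 (106086320 to 106109939, plus strand), by GENCODE on GRCh38. The RUNX3 and PRDM1 sequences lie upstream of these gene bounds, and those of EOMES and GATA3 lie inside them, upstream of an internal RefSeq start. Of the other members, TBX21 is on chromosome 17 (47733244 to 47746119, plus strand), ID2 on chromosome 2 (8678845 to 8684453, plus strand), ZEB2 on the same chromosome (144364364 to 144524583, minus strand), NFIL3 on chromosome 9 (91409045 to 91423862, minus strand), ETS1 on chromosome 11 (128458761 to 128587558, minus strand) and TOX on chromosome 8. The build behind the deposited values is not given in the sources used here. An antisense gene shares exon bases with ID2 (38 bases, 1.72% of its exons), ZEB2 (1299 bases, 5.18%) and TOX (169 bases, 4.09%). Whether the counting used strand is not given in the sources used here. Reads of ID2, ZEB2 and TOX on these shared bases therefore cannot be told from those of the antisense partners.

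The factors spanned a wide range of levels, compared here per transcript length in FPKM (fragments scaled to transcript length and library depth) as the mean ± SD over all 4 libraries. ID2 was highest at 230 ± 46.0 FPKM, above 97.4% of the tested genes. ETS1 followed at 173 ± 21.0 FPKM, and the ranges of ID2 and ETS1 over the libraries overlapped. EOMES, at 84.8 ± 12.4 FPKM, and TBX21, at 79.1 ± 11.8 FPKM, formed the next pair, with no overlap to ETS1 above them. Both T-box factors were therefore expressed at similar levels, each above about 90% of tested genes (91.1% and 90.4%). TOX, at 51.3 ± 8.89 FPKM, and RUNX3, at 50.4 ± 5.19 FPKM, could not be ordered either, and the range of TOX reached that of TBX21.

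NFIL3, at 33.4 ± 4.45 FPKM, was separated from RUNX3 above and from PRDM1 below. PRDM1, at 22.9 ± 2.77 FPKM, and GATA3, at 22.2 ± 2.88 FPKM, overlapped. ZEB2 stood apart at the bottom with 4.32 ± 0.383 FPKM, above 30.7% of tested genes, and did not overlap with any other factor. Its 503 to 729 counts per library, the lowest of the members, give a counting error (SD) of at most 4.46%, and the other members have more counts.

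**Figure D1:**
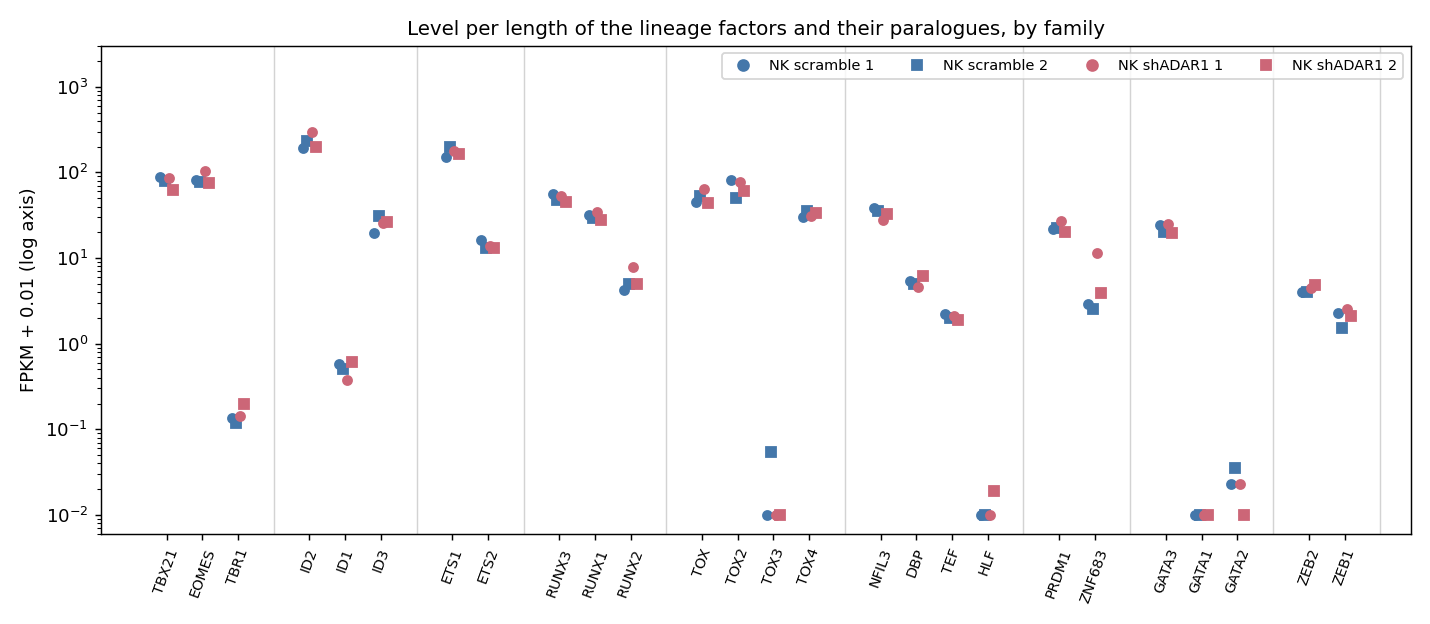
FPKM (plus 0.01, log axis) of the 10 lineage factors and their paralogues in each of the 4 libraries, grouped by family. In every library ID2 and ETS1 lie above EOMES and TBX21, and ZEB2 is the lowest of the 10 factors at 3.96 to 4.78 FPKM, while GATA1, GATA2, TOX3 and HLF lie at or near 0.

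The T-box factors drive IFNG, granzyme and perforin genes in NK cells. TBX21 had 226 and 207 CPM in NK scramble 1 and 2, compared with 216 and 167 CPM in NK shADAR1 1 and 2. NK shADAR1 2 was the lowest, but NK shADAR1 1 lay between the controls. The difference was -0.17 ± 0.20 on the log2 scale (95% interval -0.63 to 0.28). The study reported more T-bet protein in splenic NK cells of mice with ADAR1 deleted in NK cells. That result concerns protein in another species and was not examined here. EOMES had 232 and 228 CPM in the controls and 287 and 223 CPM in the knockdown libraries, which thus held both its highest and its lowest value. Its log2 fold change was 0.15 ± 0.20 (interval -0.30 to 0.60).

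The T-box factors were also read against each other, library by library. The ratio of TBX21 to EOMES, in CPM, was 0.972 and 0.908 in the controls but 0.753 and 0.748 with the knockdown hairpin. The log2 ratio was lower by a mean difference of -0.32, whereas replicates differed by 0.099 and 0.0097. In FPKM the ratios were 1.07, 1.01, 0.845 and 0.826, so the groups did not overlap on that scale either. This pair was singled out after its values were seen, among 45 pairs of members of which 12 (26.7%) did not overlap between groups in CPM, against 26.9% of all pairs of tested genes. With 2 libraries a group, the smallest two-sided p of an exact permutation test is 0.333, and no such test was made. The difference was larger than both replicate gaps in 5 of the 45 pairs, against 16% of all pairs of tested genes. They were TBX21 with EOMES, ID2 or GATA3, EOMES with ID2, and ZEB2 with TOX.

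ID2 binds E proteins and keeps them from DNA, and NFIL3 is a basic leucine zipper factor upstream of it in NK precursors. ID2 had 223 and 225 CPM in the controls and 259 and 187 CPM in the knockdown libraries. The controls were nearly equal and the knockdown libraries lay on either side of them, so the log2 fold change was -0.0061 ± 0.21 (interval -0.48 to 0.47). Its sign changed with the scaling, to 0.0051 with upper quartile scaling, and on FPKM the log2 difference was 0.18. The length that links the count of ID2 to its FPKM was 1.16 kb in NK scramble 1 and 0.941, 0.916 and 0.914 kb in the other libraries, in the order given above. The largest of these was 1.27 times the smallest, and over 9599 genes the same ratio had a median of 1.05 and exceeded 1.2 in 13.8%. ZEB2 had a ratio of 1.49, and the length of PRDM1 ran from 4.09 to 4.90 kb, whereas TBX21, NFIL3 and TOX had the same length in every library. FPKM of ID2, ZEB2 and PRDM1 thus carries a length that differs between libraries, and counts were used for their comparison between groups.

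NFIL3 was the only member whose groups did not overlap in TMM-scaled CPM. It had 77.2 and 74.6 CPM in the controls, against 54.8 and 68.8 CPM with the ADAR1 hairpin. Both knockdown libraries were below both controls, mostly through NK shADAR1 1, and the log2 fold change was -0.30 ± 0.21 (interval -0.75 to 0.16, unadjusted p = 0.179, edgeR). The difference between the means was smaller than the gap of 0.33 between the NK shADAR1 replicates. A count of 1 in 10 members without overlap compares with 26% of tested genes, and with 12.6% for genes lower in NK shADAR1.

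The E proteins TCF3, TCF4 and TCF12 are the partners that ID2 sequesters. ID2 was 1.87 and 3.35 times their summed FPKM in NK scramble 1 and 2, compared with 2.93 and 2.97 times in NK shADAR1. In CPM the ratios were 0.704, 1.06, 0.882 and 0.893. On either scale the controls held both the lowest and the highest ratio, and the knockdown libraries lay between them.

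ETS1 and RUNX3 are broadly used lymphoid factors, ETS1 binding GGAA sites and RUNX3 pairing with CBFB. ETS1 had 598 and 841 CPM in NK scramble, compared with 666 and 699 CPM in NK shADAR1. The controls spanned the knockdown libraries completely, and the log2 gap between the controls (0.49) was the largest replicate gap of any member in either group. The log2 fold change was -0.075 ± 0.23 (interval -0.58 to 0.43). RUNX3 had 231 and 209 CPM in the controls and 209 and 199 CPM in the knockdown libraries. NK scramble 2 and NK shADAR1 1 were nearly equal, so the groups overlapped by a margin of under 1 CPM. The log2 fold change of RUNX3 was -0.11 ± 0.19 (interval -0.53 to 0.31), with the smallest SE of the members.

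TOX, a high mobility group box factor, and GATA3, a zinc finger factor also central to T cells, act in NK development. TOX had 184 and 218 CPM in NK scramble, compared with 248 and 184 CPM in NK shADAR1. Its highest value was in NK shADAR1 1, and NK shADAR1 2 lay just under the lower control, with a log2 fold change of 0.10 ± 0.22 (interval -0.37 to 0.58). GATA3 had 63.8 and 56.0 CPM in the controls and 66.0 and 56.6 CPM in the knockdown libraries. In each group library 1 was the higher one, and the log2 fold change was 0.033 ± 0.20 (interval -0.41 to 0.48).

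BLIMP-1 and ZEB2 are transcriptional repressors that promote terminal maturation of NK cells. PRDM1 had 96.6 and 112 CPM in NK scramble, compared with 105 and 97.0 CPM in NK shADAR1. Both knockdown values lay within the range of the controls, and the log2 fold change was -0.044 ± 0.20 (interval -0.48 to 0.39). ZEB2 had 12.6 and 15.6 CPM in the controls and 18.5 and 14.2 CPM in the knockdown libraries. Its highest value was in NK shADAR1 1, the other knockdown library lay between the controls, and the log2 fold change was 0.22 ± 0.24 (interval -0.31 to 0.74). In FPKM, ZEB2 had 3.96 and 4.06 in NK scramble, compared with 4.47 and 4.78 in NK shADAR1, so its groups did not overlap on that scale.

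**Figure D2:**
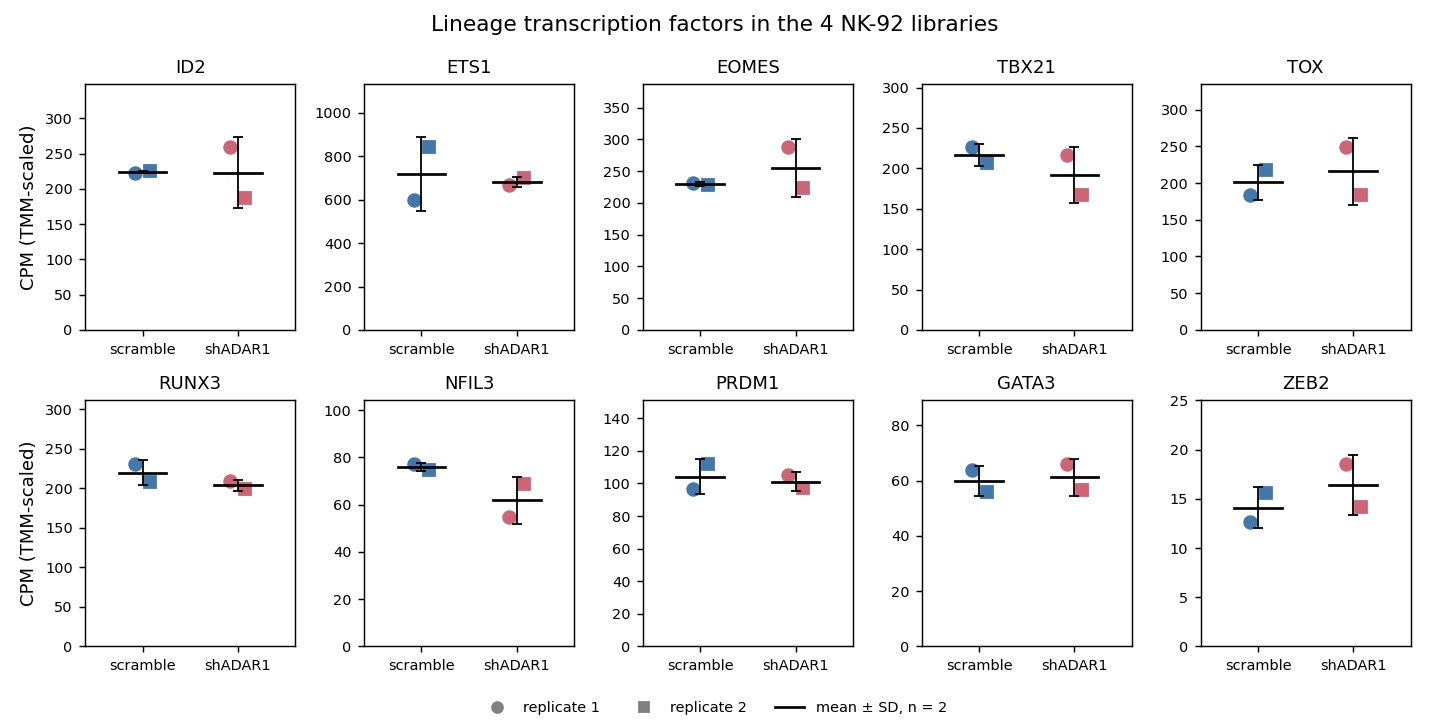
TMM-scaled CPM of the 10 factors in NK scramble and NK shADAR1, with circles for replicate 1, squares for replicate 2, and the mean ± SD (n = 2) in black. Every axis starts at 0, and the groups overlap in all panels except NFIL3, where the NK shADAR1 libraries have 54.8 and 68.8 CPM and the NK scramble libraries 77.2 and 74.6 CPM.

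Across the set, 4 of the 10 log2 fold changes were above 0 and 6 below, with a median of -0.025. The median size without sign was 0.11, against 0.15 over all tested genes, of which 5905 were above 0 and 5905 below. Unadjusted p-values ran from 0.179 for NFIL3 to 0.978 for ID2, and adjusted p-values were 1.00 for each member (edgeR). The 95% interval excluded a 2-fold change in 10 of 10 members, compared with 76.6% of tested genes, and a 1.5-fold change in 6 of 10, compared with 32%. The intervals of EOMES, TBX21, NFIL3 and ZEB2 reach past 1.5-fold. The data in bulk RNA cannot tell fewer cells that express a factor from less of its RNA per cell.

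**Figure D3:**
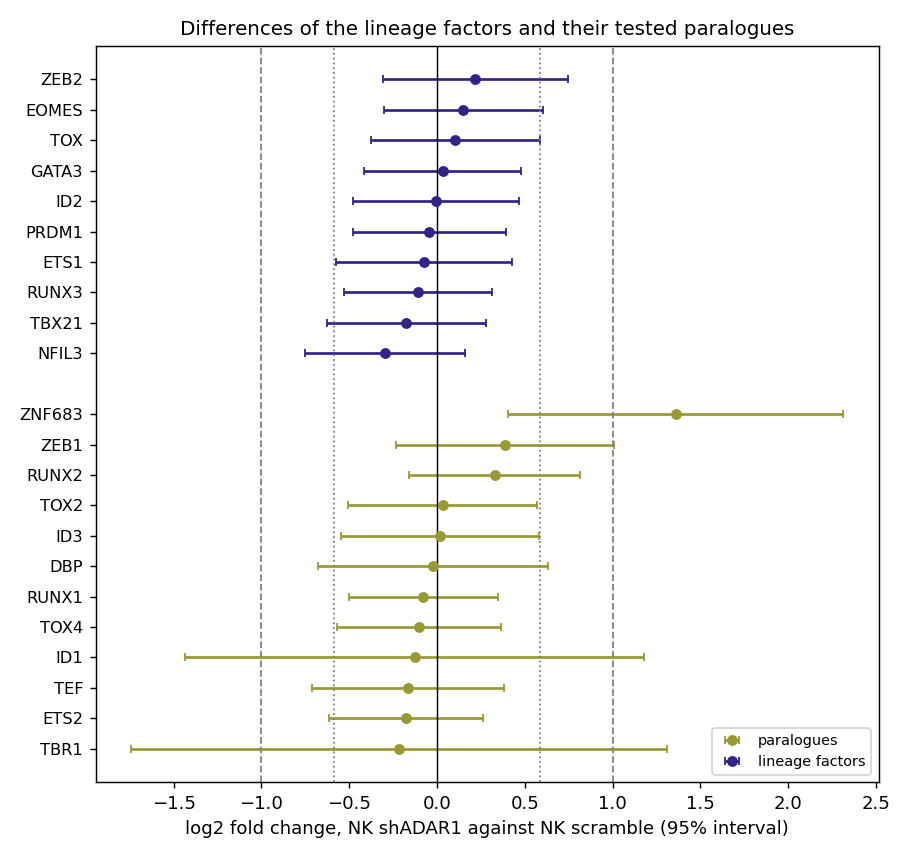
Log2 fold change of NK shADAR1 against NK scramble with its 95% interval from edgeR for the 10 factors (top) and their 12 tested paralogues (bottom), with dotted lines at 1.5-fold and dashed lines at 2-fold. All 10 factors cross 0 and stay inside the 2-fold lines, and ZNF683, at 1.36, has an interval that leaves out 0.

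For every member, the difference between the group means was smaller than the larger of its replicate gaps (0 of 10 exceeded both, against 14.9% of tested genes). Much of that spread was between the knockdown libraries. NK shADAR1 1 was the highest of the 4 libraries for 5 members (EOMES, ID2, ZEB2, TOX and GATA3) and the lowest for NFIL3. NK shADAR1 2 was the highest for 0 members and the lowest for 5 (TBX21, EOMES, ID2, RUNX3 and TOX). The log2 gap between the knockdown libraries was 0.47 for ID2, 0.44 for TOX, 0.38 for ZEB2, 0.37 for TBX21 and 0.37 for EOMES. In the controls, the gaps of EOMES and ID2 were 0.029 and -0.0098 (library 1 minus library 2), and that of ETS1 was the widest. No batch is given in the labels that would separate the knockdown libraries, and the part of any batch in this spread was not tested. The numbers of these libraries also match the study's names for its hairpins, and a difference of hairpin between them was not tested.

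**Figure D4:**
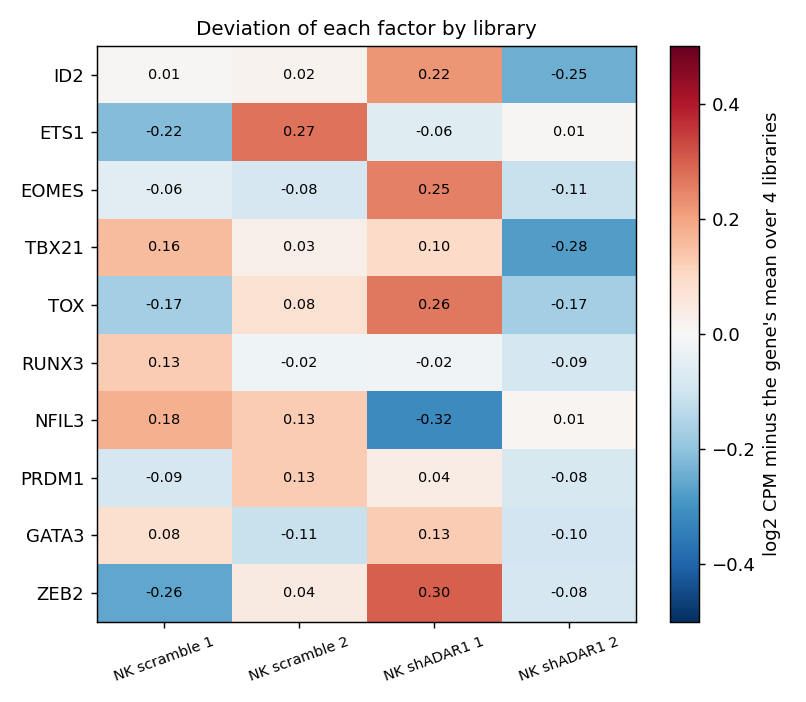
Log2 CPM of each factor in each library minus the factor's mean over the 4 libraries, ordered by level, with the value printed in each cell. The NK shADAR1 1 column holds the highest values of ID2 (0.22), EOMES (0.25), TOX (0.26) and ZEB2 (0.30) and the lowest of NFIL3 (-0.32), whereas ID2 and TBX21 are lowest in NK shADAR1 2.

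Paralogues, which belong to the same protein families as the members, were described beside them. Of 16 paralogues, 12 passed the filter, with 5 log2 fold changes above 0 and 7 below (median -0.049), and 0 passed the adjusted test. ZNF683, which encodes Hobit, a relative of BLIMP-1 in tissue-resident lymphocytes, had 4.18 and 3.64 CPM in NK scramble, compared with 14.9 and 5.22 CPM in NK shADAR1. The values of ZNF683 did not overlap between groups but rested mostly on NK shADAR1 1. Its log2 fold change was 1.36 ± 0.43 (unadjusted p = 0.010, adjusted p = 1.00, edgeR), and 5 of the 12 tested paralogues did not overlap (ZNF683, ZEB1 and RUNX2 higher, TEF and ETS2 lower), against 26% of tested genes.

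ID3 ranged from 19.6 to 31.4 FPKM and ID1 from 0.369 to 0.600 FPKM, so ID2 was above ID1 and ID3 in each library. RUNX1 ranged from 27.7 to 34.7 FPKM and RUNX2 from 4.25 to 7.88 FPKM, below RUNX3 throughout. In the TOX family, TOX2 ranged from 50.2 to 81.3 FPKM and overlapped with TOX, TOX4 ranged from 29.8 to 35.2 FPKM, and TOX3 was at or under 0.044 FPKM. TOX2 was thus expressed in the range of TOX itself.

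Of the remaining relatives, ETS2 reached at most 16.2 FPKM, DBP 6.09 FPKM, TEF 2.21 FPKM, ZEB1 2.55 FPKM and TBR1 0.185 FPKM. GATA1 was at 0 in every library, and GATA2 and HLF had at most 2 and 1 counts in a library. NFIL3, GATA3 and ETS1 were each above the relatives listed here in every library. ZEB1, with 1.51 to 2.55 FPKM, was below ZEB2 in every library, with a log2 fold change of 0.39.

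Partners and other lymphoid regulators were read from a list of 34 genes, 30 of them tested. Of these, 20 were above 0 and 10 below, with a median log2 fold change of 0.11 beside 2.8e-05 over all tested genes, and 0 passed the adjusted test. The median was 0.032 without NK shADAR1 1. The groups did not overlap in 10 of the 30 genes with NK shADAR1 higher, against 13.3% of tested genes. In 3 they did not overlap with NK shADAR1 lower, against 12.6%. No set test was made. The most abundant per length were LMO4, a LIM-only cofactor at 89.1 to 135 FPKM, and CBFB, the partner subunit of RUNX3, at 73.1 to 88.9 FPKM. CBFB had a log2 fold change of -0.23 ± 0.20, and neither CBFB nor RUNX3 passed the test. ZBTB32, a zinc finger repressor used in NK proliferation, had 54.7 and 46.0 CPM in the controls and 30.7 and 38.8 CPM in the knockdown libraries (log2 fold change -0.54 ± 0.21, unadjusted p = 0.030, edgeR). BCL6, a repressor known to oppose BLIMP-1, had 4.33 and 5.08 FPKM in the controls and 10.9 and 5.91 FPKM in the knockdown libraries (0.74 ± 0.26 on the log2 scale, unadjusted p = 0.016, edgeR), whereas PRDM1 itself differed by -0.044. Neither passed after adjustment over all genes.

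Genes that T-bet and EOMES are known to control were 17 tested of 18 listed, with 9 above 0, 8 below, and a median of 0.00083 on the log2 scale. Of the 17, 1 was higher without overlap and 2 were lower, against 13.3% and 12.6% of tested genes. NKG7 and GZMA, granule genes and the most abundant of the list, had 1742 to 2081 and 1131 to 1732 FPKM. IFNG, the main cytokine under T-bet, had 32.3 and 60.0 CPM in NK scramble, compared with 19.7 and 22.5 CPM in NK shADAR1. The groups did not overlap, with a log2 fold change of -1.13 ± 0.28 (unadjusted p = 0.0024, edgeR) that did not pass after adjustment. TBX21 differed by -0.17 in the same libraries, and a link between TBX21 and IFNG was not tested.

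Maturation was read through markers of the less mature CD56bright and the more mature CD56dim NK cells. Of 13 tested CD56bright markers, 7 were above 0 and 6 below (median 0.12, and -0.11 without NK shADAR1 2). COTL1 and GZMK were the most abundant, at 616 to 804 and 236 to 363 FPKM. KIT, the stem cell factor receptor, had 1.18 and 1.73 CPM in the controls and 5.01 and 2.30 CPM in the knockdown libraries (1.33 ± 0.47, unadjusted p = 0.017, edgeR), again highest in NK shADAR1 1. The study had already named KIT among the genes increased in its knockdown cells. Of 14 tested CD56dim markers, 12 were above 0 and 2 below (median 0.30), and 0 had an unadjusted p under 0.05. GZMB, with 500 to 597 FPKM, and PRF1, with 135 to 191 FPKM, were the most abundant of that list, and with log2 fold changes of -0.0075 and -0.036 they were also the 2 markers below 0. The groups of 3 CD56dim markers did not overlap and were higher (GZMH, LILRB1 and ADGRG1, named after their values were seen), and 0 were lower. Among the CD56bright markers, 3 did not overlap and were higher, and 1 was lower. Over all tested genes, 13.3% were higher without overlap and 12.6% lower. The median of the CD56dim list was 0.079 without NK shADAR1 1 and 0.16 without NK scramble 1. The factors known to drive this maturation, TBX21, ZEB2 and PRDM1, differed by -0.17, 0.22 and -0.044.

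**Figure D5:**
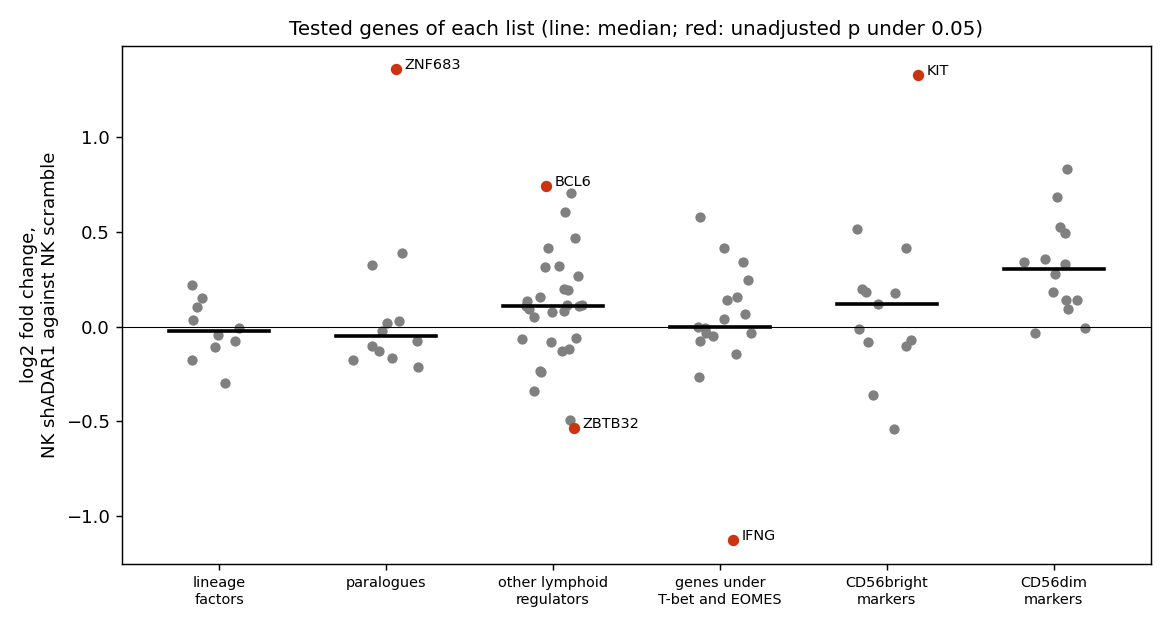
Log2 fold change of NK shADAR1 against NK scramble for each tested gene of the lineage factors, their paralogues and 4 related lists, with a black line at the median and red points for an unadjusted p under 0.05. The 10 factors stay between -0.30 and 0.22, and the 5 labelled genes outside the set (ZNF683, BCL6, ZBTB32, IFNG and KIT) did not pass after adjustment.

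The NK identity of the libraries was read from 11 markers, of which 10 were tested with a median log2 fold change of 0.11. NKG7 and GNLY (744 to 870 FPKM) were the highest, and KLRF1 had at most 0.102 CPM. Of 12 T cell markers, CD3E, known in NK cells as a cytoplasmic protein, reached 396 to 554 FPKM and TRBC1 107 to 169 FPKM, while CD8A and CD8B were at 0 in every library. All 7 tested T cell markers had a log2 fold change above 0 (median 0.23), as did both tested B cell markers (median 0.68) and the 4 tested myeloid markers (median 0.46), and 0 of these had an unadjusted p under 0.05. The groups did not overlap, with NK shADAR1 higher, in 3 of 10 tested NK cell, 2 of 7 T cell and 3 of 4 myeloid markers. The share over all tested genes was 13.3%. The summed T cell markers were 1023 and 1321 CPM in NK scramble, compared with 1203 and 1429 CPM in NK shADAR1. B cell markers summed to 20.1 to 46.2 CPM, mostly PAX5, and were highest in NK shADAR1 1, where 5 of the factors were highest too. Myeloid markers summed to 25.1 and 29.9 CPM in the controls and 32.8 and 35.6 CPM in the knockdown libraries, mostly ITGAM. ITGAM encodes CD11b, which the study used to stage mouse NK cells, so this sum is not particular to myeloid cells. Of the B cell markers 2 of 6 and of the myeloid markers 4 of 8 passed the filter, CD14 had at most 0.058 FPKM, and the part of such cells in the members' values was not tested.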

How the data were processed

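RNA-seq of 4 NK-92 libraries was analysed, 2 NK scramble and 2 NK shADAR1. Reads were filtered with fastp 0.18.0 per the submitters' processing notes. The aligner, counting program, genome build, annotation and transcript length are not given in the sources used here. The deposited values of the first kind are estimated counts, not scaled for depth and in part not whole (20323 genes, 20301 matched to a symbol). The deposited FPKM values scale those counts by length and depth. The members and gene lists were chosen with earlier results of these data known.

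Counts were rounded, filtered with filterByExpr (minimum count 10), scaled by TMM and tested in R 4.3.3 with the quasi-likelihood test of edgeR 4.0.16 without covariates, with Benjamini-Hochberg adjustment over 11810 genes. An SE is the size of the log2 fold change over the root of F. The study used a fold threshold of 1.5 beside the adjusted p, and since 0 genes passed the adjusted p this changed no count. With DESeq2 and these thresholds the study did report differentially expressed genes, whereas 0 were called here by edgeR or DESeq2. The reason for this difference was not tested. Levels between genes were compared in FPKM. A list is described by its counts and its median beside those of all tested genes. Named genes were all members and paralogues, the 2 genes of each other list with the highest mean FPKM, every listed gene with an unadjusted p under 0.05, and ADAR. Genes in addition to these, such as TCF3, CD8A or CD14, were named after their values were seen. Depth was 37881704 to 39960491 counts per library. Alternatives included DESeq2 1.42.0, scaling by RLE or by upper quartile, 2 other filters, the replicate number as a block, limma 3.58.1 on log2(FPKM + 1) and log2(FPKM + 0.1) at a mean FPKM of at least 0.5 and on log2(FPKM + 1) without that filter, and each library left out in turn. The scripts were tested on simulated data. The series' design text calls the 2 libraries of a group independent biological replicates.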

Additional observations from a re-analysis of the deposited data

How the results depend on the processing

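Of the 13 alternatives, 0 gave a member an adjusted p under 0.05, and the smallest adjusted p of any member was 0.946. Each group has 2 libraries, and no alternative varied the depth. Genes called over the whole table were 0 by edgeR, with 293 at an unadjusted p under 0.05, and 0 by DESeq2, with 289. With the replicate block, 13 genes were called. The replicate numbers are shared between the groups without a batch in the labels, and the deviations of same-numbered libraries correlated at 0.308, a single value with 2 libraries per group. Leaving out a library gave 1 to 47 called genes (47 without NK scramble 1, 2 without NK scramble 2, 16 without NK shADAR1 1 and 1 without NK shADAR1 2), with the lone library of a group assumed to vary like the other group.

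Members without overlap between groups numbered 2 rather than 1 with DESeq2 scaling and with no filter beyond 1 count (NFIL3 and RUNX3) and in each of the 3 fits on FPKM (NFIL3 and ZEB2), and 5 to 7 with a library left out, where a group of 1 overlaps less easily. The share over all tested genes was counted in the main setting only (26%). The counts under the alternatives thus have no share beside them and are not read as a result about the members. Of 130 log2 fold changes of members under an alternative, 17 changed sign, in 6 members. ID2 was at 0.0051 with upper quartile scaling, 0.0037 with a mean of at least 50 counts, and 0.18 in each fit on FPKM, and PRDM1 at 0.062 with log2(FPKM + 1), with or without the filter, and 0.064 with log2(FPKM + 0.1). With a library left out, the log2 fold change ranged from -0.042 to 0.32 for EOMES (sign changed without NK shADAR1 1), -0.26 to 0.21 for ID2 (without NK shADAR1 2), -0.15 to 0.061 for PRDM1 (without NK scramble 2 or NK shADAR1 2), -0.13 to 0.30 for TOX (without NK scramble 1 or NK shADAR1 1), -0.30 to 0.19 for ETS1 (without NK scramble 2) and -0.082 to 0.14 for GATA3 (without NK scramble 2 or NK shADAR1 1). That of NFIL3 ranged from -0.47 to -0.14 and kept its sign. The cause of these changes was not tested.

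With a library left out, the median log2 fold change ranged from -0.15 to 0.074 for the paralogues, 0.032 to 0.17 for the partners and other regulators, -0.097 to 0.16 for the genes under T-bet and EOMES, -0.11 to 0.33 for CD56bright markers, 0.079 to 0.37 for CD56dim markers, -0.0075 to 0.19 for NK cell markers, 0.045 to 0.37 for T cell markers and -0.12 to 1.19 for B cell markers. The median of the myeloid markers was 0.13 on log2(FPKM + 1) without a filter, compared with 0.46 on counts.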
